A study of Rattus norvegicus with 18 samples.

Results

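Bone marrow stromal cells of rats fed a high-fat diet for 2 months were compared with those of rats fed the same diet for 1 month. The comparison holds 6 of the 18 arrays of the series, 3 per feeding time, chosen by the titles of the samples alone. Sprague-Dawley rats aged 6 weeks at the start received either a normal diet (ND, basal diet at 100%) or a high-fat diet (HFD) made of 60% basal diet, 20% lard, 10% sucrose and 10% egg yolk powder. Each diet was sampled after 1, 2 and 4 months, with 3 arrays in each of the 6 groups.

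All groups are cultures, not fresh marrow: whole marrow was plated, adherent cells were passaged in low-glucose medium with serum, and total RNA was hybridised to Affymetrix rat arrays. The sample labels place the harvest at passage 3 and the series text at passage 1, so the passage is unsettled. The diet was given to the animal, and the RNA came from cells grown in medium. The sources used here give 3 per group but do not say whether every array is a different rat. The p-values below then measure only the spread between these arrays, and the number of arrays limits their precision.

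Marrow stromal cells hold blood stem cells in place, chiefly through the chemokine Cxcl12, and can become bone-forming cells or fat cells. WNT signals favour the bone fate, and secreted antagonists such as Sfrp1 bind WNT ligands outside the cell. Stromal cells also secrete complement proteases and acute phase proteins, which rise in inflammation.

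Several markers of the labelled cell type were bright on the 6 arrays, and others of the same list were dim on the 12 arrays of the other groups. On the log2 intensity scale, which is used for every level below, Thy1 lay between 11.73 and 12.12, Itgb1 between 11.05 and 11.36 and Pdgfra between 9.80 and 10.87. On the 12 ND and HFD 4-month arrays Eng lay between 5.69 and 6.68 and Nes between 4.86 and 5.58. The mean of 18 listed markers was 8.79, 9.08 and 8.71 after 1 month of HFD and 8.93, 8.79 and 8.71 after 2 months. None of the 20 tested stromal surface markers passed the test between the feeding times. Of these markers 10 were higher and 10 lower after 2 months (median −0.001). Pdgfra lay below all 12 ND and HFD 4-month arrays on all 3 HFD 2-month arrays, and Alcam, Anpep and Nt5e did so on 2 of the 3. In the other direction, Nes lay above those 12 on all 3, and Cspg4 above the 11 with a value on 2 of the 3. The leukocyte phosphatase Ptprc varied from 3.16 to 6.78 on the 6 compared arrays. These 6 arrays were alike in brightness, with median intensities of 26.1 to 26.8. On them the beta-actin control, which reads RNA degradation, was 0.55 to 0.66 log2 units brighter at its 3' end than at its 5' end. Over the tested probe sets, arrays of the same group correlated at 0.955 to 0.989 after 1 month and at 0.963 to 0.982 after 2 months, and arrays of different groups at 0.937 to 0.980. HFD 1-month replicate 2 stood farthest from the others of its group, and HFD 2-month replicate 3 lay nearest to the 1-month arrays.

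Few genes differed past the threshold between the feeding times of HFD, and the large changes were falls. The rats fed for longer were also older, so feeding time and age cannot be told apart within HFD. The part of any difference in culture between the groups was not tested. Of 21729 tested probe sets, 17 passed a Benjamini-Hochberg adjusted p under 0.05 in limma (0.0782%), 6 higher and 11 lower after 2 months. Their median absolute change was 1.72 log2 units, 14 reached a 2-fold change and 7 a 4-fold change. They stand for 11 named genes of 11446 (0.0961%): Sfrp1, Cxcl12, Hp, C1s, Lgals9, Lrrc75a and C1r fell, and Arhgap5, Tmem30b, Rbm11 and Foxq1 rose. At an unadjusted p under 0.05 there were 1686 probe sets, 994 higher and 692 lower. In bulk cultures, fewer cells of a type and less RNA per cell cannot be told apart, and this holds for each gene below.

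The count of 17 rests on single arrays. It was 0 without ND 1-month replicate 1, HFD 1-month replicate 2, HFD 1-month replicate 3, ND 2-month replicate 1, HFD 2-month replicate 1, HFD 4-month replicate 1 or HFD 4-month replicate 2. It was 1 without HFD 1-month replicate 1, 3 without ND 1-month replicate 2, 4 without ND 1-month replicate 3, HFD 2-month replicate 2 or ND 4-month replicate 1, and 6 without ND 4-month replicate 3 or HFD 4-month replicate 3. It was 18 without ND 2-month replicate 2, 19 without ND 2-month replicate 3 and 23 without ND 4-month replicate 2. Without HFD 2-month replicate 3 it was 182. The 11 genes kept their direction in every such omission, and each passed in 2 to 10 of the 18.

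**Figure D1:**
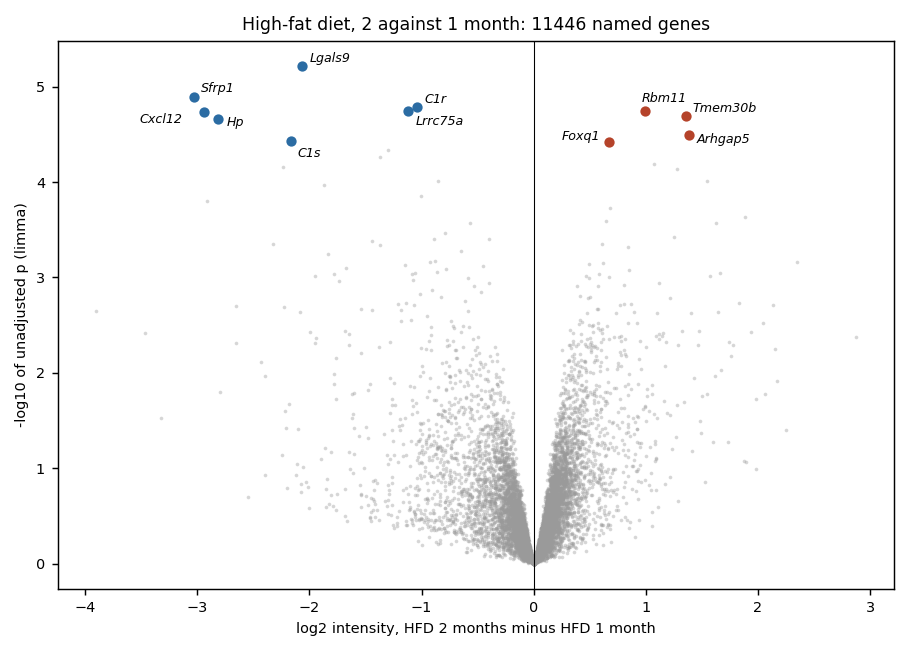
Each point is 1 of 11446 named genes, with the log2 difference of HFD 2 months minus HFD 1 month on the x axis and −log10 of the unadjusted limma p on the y axis. The 7 genes that fell are blue and reach down to −3.03 (Sfrp1), and the 4 that rose are red and reach 1.39 (Arhgap5).

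Upstream DNA is shown for those falling genes that have an entry in the RefSeq promoter table (build GRCr8), because they fell together and the table gives the stretch where regulators could bind. The table had entries for 6 of the 11 called genes, C1r, Cxcl12, Lgals9, Arhgap5, Tmem30b and Foxq1. Each line gives the 250 bases before the annotated start, 5′ to 3′ on the gene's strand. C1r lies on the plus strand with this window at chr4:159098763-159099012, Cxcl12 on the plus strand at chr4:152060531-152060780 and Lgals9 on the minus strand at chr10:64428071-64428320. Capitals mark any match to 7 motifs searched on both strands.
C1r: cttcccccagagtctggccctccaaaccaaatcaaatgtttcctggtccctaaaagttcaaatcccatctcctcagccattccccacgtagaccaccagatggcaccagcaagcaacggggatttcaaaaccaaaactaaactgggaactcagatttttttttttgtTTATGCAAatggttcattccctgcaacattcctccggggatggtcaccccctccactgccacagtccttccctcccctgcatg
Cxcl12: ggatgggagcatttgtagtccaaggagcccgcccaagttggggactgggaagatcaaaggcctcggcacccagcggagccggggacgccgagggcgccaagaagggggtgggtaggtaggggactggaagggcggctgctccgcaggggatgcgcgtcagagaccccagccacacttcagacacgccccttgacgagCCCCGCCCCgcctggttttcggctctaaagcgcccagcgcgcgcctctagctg
Lgals9: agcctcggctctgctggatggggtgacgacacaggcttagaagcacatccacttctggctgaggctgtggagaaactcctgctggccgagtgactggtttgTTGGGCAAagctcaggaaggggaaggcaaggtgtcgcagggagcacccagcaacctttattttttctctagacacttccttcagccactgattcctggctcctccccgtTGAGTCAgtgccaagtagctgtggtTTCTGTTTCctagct

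The motifs and the share of 33469 promoter windows of this length that hold them were TATAAA (12.9%), CCAAT (34.0%), the AP-1 motif TGANTCA (6.34%), the C/EBP motif TTGCNNAA (9.22%), the STAT motif TTCNNNGAA (7.67%), the interferon response motif GAAANNGAA (8.12%) and the GC box GGGGCGGGG (3012 of the 33469 windows). The C1r window held 1 match, to TTGCNNAA, at 83 to 76 bases before the start on the opposite strand. The Cxcl12 window held 1 match, to the GC box, at 53 to 45 bases. The Lgals9 window held 3: TTGCNNAA at 149 to 142 bases, TGANTCA at 40 to 34 bases and GAAANNGAA at 15 to 7 bases. No motif was shared by all 3 windows. Their GC content was 49.6% in C1r, 67.6% in Cxcl12 and 54.8% in Lgals9, against a median of 51.2% over all windows. A match describes letters only, not a bound site.

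Cxcl12, the chemokine that keeps blood stem cells in the marrow, was among the brightest genes to fall. It read 11.83, 11.59 and 12.20 after 1 month of HFD and 8.53, 8.56 and 9.72 after 2 months. The groups did not overlap, and all 3 of the 2-month arrays lay below every other array of the series, with replicate 3 the least low. The fall was 2.94 ± 0.469 log2 units (SE, n = 3 per group), or 7.65-fold, with an adjusted p of 0.0395 in limma. All 3 Cxcl12 probe sets were lower, and 1 of them passed.

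Cxcl12 was the 1 member called among 12 tested haematopoietic niche factors, of which 9 were lower and 3 higher (median −0.36, against 0.006 over all named genes). Without HFD 1-month replicate 2 the list median was −0.60. Over all named genes, 733 (6.40%) were lower and 828 (7.23%) higher with no overlap between the 3 and 3 arrays. In this list 4 were lower and 1 higher in that way. Angpt1, a ligand of the Tie2 receptor, read 6.05, 7.11 and 6.34 after 1 month and 4.18, 5.39 and 3.95 after 2 months. Its difference was −1.99 ± 0.578 and did not pass (adjusted p = 0.334 in limma). The lymphoid cytokine Il7 differed by −1.09 ± 0.441 (adjusted p = 0.547 in limma). The stem cell factor Kitlg overlapped between the groups, at 7.79 to 8.68 against 7.36 to 8.28, and so did the transcription factor Ebf1, at 8.09 to 8.76 against 7.89 to 8.45.

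Sfrp1, a secreted antagonist that binds WNT ligands, had the largest fall of the 11 genes. It read 10.08, 9.51 and 10.27 after 1 month and 6.36, 6.51 and 7.91 after 2 months of HFD. The 9 ND arrays lay between 8.91 and 11.25, so the 2-month HFD arrays stood below all of them, replicate 3 again nearest to the rest. The fall was 3.03 ± 0.469 log2 units, or 8.16-fold (adjusted p = 0.0395 in limma). Of its 3 probe sets, all were lower and 2 passed.

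The rest of the WNT list showed no common shift. Of 29 tested WNT antagonists, ligands and targets, 16 were lower and 13 higher (median −0.04), and Sfrp1 was the 1 member called. With no overlap between the groups, 3 were higher and 2 lower, Sfrp1 among the lower and the other not named here. On all 3 HFD 2-month arrays, 2 members lay below every ND and HFD 4-month array and 2 lay above. The sign of that median turned without HFD 1-month replicate 1 (0.02) and without HFD 1-month replicate 3 (0.07). Axin2, a feedback target of WNT signalling, read 4.57, 4.53 and 4.39 after 1 month and 5.35, 5.01 and 5.17 after 2 months. The groups did not overlap, but the difference of 0.68 ± 0.137 did not pass (adjusted p = 0.0986 in limma). The same held for Znrf3, a ligase that removes WNT receptors and is itself a WNT target (0.36 ± 0.115, adjusted p = 0.383 in limma), and for the ligand Wnt5b (0.47 ± 0.164, adjusted p = 0.451 in limma). The targets Lef1 and Nkd2, chosen after their values were seen, differed by 0.57 ± 0.275 and 0.69 ± 0.441 with overlapping arrays. Axin2, Znrf3, Wnt5b, Lef1 and Nkd2 are all among the 13 higher members, against 16 lower. The antagonists Sfrp2, Wif1 and Dkk3 were picked outside the naming rule given below. They differed by 0.12 ± 0.166, 0.06 ± 0.286 and 0.26 ± 0.419, none past the threshold.

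Complement and acute phase genes gave 3 of the 7 named falls. Hp encodes haptoglobin, the plasma protein that binds free haemoglobin. It read 9.03, 7.79 and 7.90 after 1 month and 5.14, 5.86 and 5.28 after 2 months with no overlap between the groups. The fall was 2.82 ± 0.457 log2 units, or 7.04-fold (adjusted p = 0.0395 in limma). The 9 ND arrays lay between 7.35 and 9.51.

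C1r and C1s encode the paired proteases of the first complement component and are direct neighbours on chromosome 4 in RefSeq. C1s read 8.82, 9.35 and 9.56 after 1 month and 6.79, 6.82 and 7.63 after 2 months. C1r read 9.72, 9.91 and 10.06 after 1 month and 8.78, 8.58 and 9.22 after 2 months. In both genes replicate 3 was the highest of the 2-month arrays and still lay below every array of the other groups. The fall was 2.17 ± 0.370 log2 units for C1s (adjusted p = 0.0489 in limma) and 1.04 ± 0.164 for C1r (adjusted p = 0.0395 in limma).

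Of the 18 tested complement and acute phase genes, 17 were lower after 2 months and 1 higher, with a median of −1.73. By call, 3 fell and none rose, against 0.0961% of named genes called in either direction. With no overlap 7 were lower, against 6.40% of all named genes. The lipopolysaccharide-binding protein Lbp read 8.15, 7.29 and 8.38 against 5.83, 5.17 and 5.86, a difference of −2.32 ± 0.513 that did not pass (adjusted p = 0.156 in limma). The C1 inhibitor Serping1 differed by −1.84 ± 0.418 (adjusted p = 0.171 in limma). Both lay below every array of the other groups on all 3 of the 2-month arrays. Complement factor C3 was wide within each group, at 4.62, 9.79 and 5.62 against 2.88, 5.92 and 4.63, and its difference of −2.20 ± 1.481 did not pass. C1qa, C1qb and C1qc, which also stand on the macrophage list, overlapped between the groups, with differences from −0.34 to 0.46. The list median was −0.60 without HFD 1-month replicate 2 and −0.42 when no probe set was left out for low intensity.

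Lgals9 encodes galectin-9, a sugar-binding protein that acts on immune cells. It read 5.52, 5.91 and 5.53 after 1 month and 3.21, 4.05 and 3.51 after 2 months, and the ND arrays lay between 4.72 and 6.67. The fall was 2.06 ± 0.298 log2 units (adjusted p = 0.0395 in limma). A second probe set that also fell, by 1.72, is annotated to both Lgals9 and its relative Lgals5, so signal from these near-identical genes cannot be told apart there. Lrrc75a fell by 1.12 ± 0.179 log2 units (adjusted p = 0.0395 in limma), from 6.14, 5.88 and 5.92 to 4.67, 4.56 and 5.34. A probe set with no gene name, 1392068_at, had the largest change of all that passed, falling by 3.86 ± 0.540 from 8.41, 7.40 and 8.71 to 3.09, 4.37 and 5.47.

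**Figure D2:**
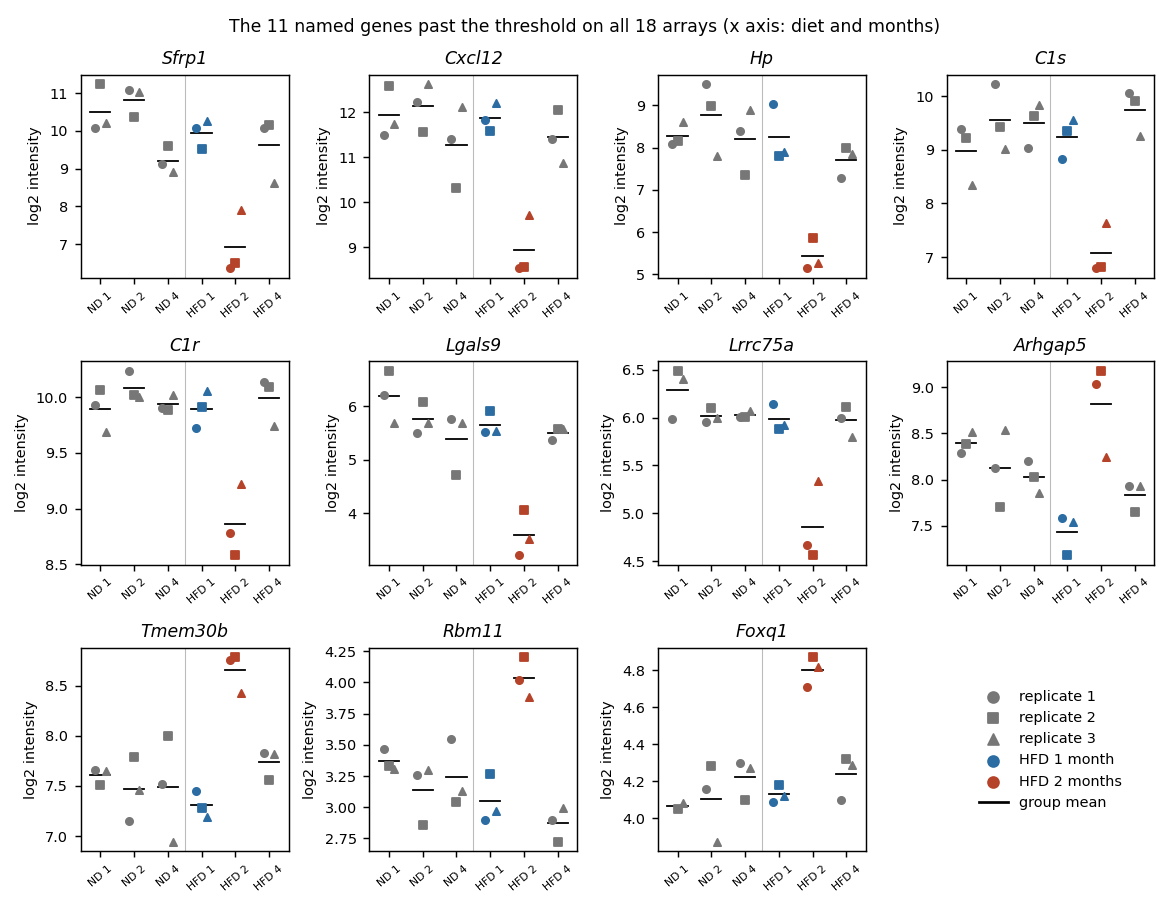
Log2 intensity of the 11 named genes past the threshold on the 18 arrays, by diet and months; symbols mark the replicate number and lines the group means. HFD 2-month arrays (red) lie apart from the other 5 groups in 10 of the genes; in Arhgap5 the HFD 1-month arrays (blue) lie below all others and HFD 2-month replicate 3, at 8.24, falls among the ND arrays.

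The 4 genes that rose did so by 0.67 to 1.39 log2 units, less than the 5 largest named falls and around the size of the falls of Lrrc75a and C1r. Tmem30b, a subunit of flippases that move phospholipids across membranes, read 7.45, 7.28 and 7.19 after 1 month and 8.76, 8.78 and 8.43 after 2 months. The rise was 1.35 ± 0.218 log2 units (adjusted p = 0.0395 in limma), and the 2-month arrays lay above every other array. Arhgap5, a GTPase-activating protein, read 7.58, 7.18 and 7.54 against 9.04, 9.18 and 8.24, a rise of 1.39 ± 0.234 (adjusted p = 0.0469 in limma). Its ND arrays lay between 7.70 and 8.54, so here the 1-month HFD arrays were the low group and 2 of the 3 2-month arrays stood above the rest.

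Rbm11, a regulator of splicing, rose by 0.99 ± 0.158 log2 units (adjusted p = 0.0395 in limma), from 2.90, 3.27 and 2.97 to 4.02, 4.20 and 3.88. Its 1-month values lie around 3.22, the level under which probe sets were left out, so they are close to the dimmest readings tested. Its mean over the 15 arrays without the HFD 2-month group was 3.13, so it entered the test only through the group where it is high; the other 16 called probe sets stayed above that level without those arrays. With no intensity filter its adjusted p was 0.0413 in limma. The forkhead factor Foxq1 rose by 0.67 ± 0.111 (adjusted p = 0.0489 in limma), from 4.09, 4.18 and 4.12 to 4.71, 4.87 and 4.82. Its fit lacks a value for ND 1-month replicate 1. Just short of the threshold were Ppip5k1, an inositol pyrophosphate kinase (1.08 ± 0.194, adjusted p = 0.0597 in limma), and Ptgs2os, an RNA read from the strand opposite Ptgs2 (1.28 ± 0.233, adjusted p = 0.0615 in limma).

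The called probe sets were also set against the 12 arrays of the other 4 groups, which enter the fit through the shared estimate of spread. Over the 17, the 3 HFD 2-month arrays lay wholly below the 12 ND and HFD 4-month arrays in 10 and wholly above them in 4. The HFD 1-month arrays lay wholly below those 12 in 2, Arhgap5 and the unnamed 1382712_at, and above them in none. Over all named genes, the HFD 2-month arrays lay wholly below the 12 in 233 (2.04%) and above in 213 (1.86%), and the HFD 1-month arrays below in 76 (0.664%) and above in 37 (0.323%). The 17 were chosen by their change, so these counts describe them and test nothing.

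Genes of the list of osteogenic factors and bone matrix read mostly higher, though not all did. Of 18 tested osteogenic genes, 15 were higher and 3 lower (median 0.42), and none passed. With no overlap 7 were higher, against 7.23% of all named genes. The differences of single members ran from −2.07 to 2.88. With no intensity filter the list median was 0.27. Ankh, which carries pyrophosphate out of the cell, read 7.93, 7.21 and 7.22 after 1 month and 8.73, 9.40 and 8.88 after 2 months (1.55 ± 0.291, adjusted p = 0.0656 in limma). Both of its probe sets were higher. Enpp1, the enzyme that makes extracellular pyrophosphate, read 9.98, 8.66 and 9.19 against 11.21, 11.64 and 10.64 (1.89 ± 0.388, adjusted p = 0.120 in limma). Both genes stood above every other array of the series on all 3 of the 2-month arrays.

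The matrix proteins of mineralising bone were more variable. Ibsp, bone sialoprotein, read 6.98, 4.90 and 5.02 against 9.59, 8.80 and 7.14 (2.88 ± 0.837, adjusted p = 0.343 in limma), and Spp1, osteopontin, 10.81, 11.45 and 10.38 against 12.91, 12.25 and 11.68 (1.40 ± 0.375, adjusted p = 0.280 in limma). Neither overlapped between the 2 feeding times, and 2 of the 3 Ibsp values and 1 of the 3 Spp1 values after 2 months lay above the highest ND arrays, at 8.21 for Ibsp and 12.68 for Spp1. The bulk collagens were flat, with Col1a1 at 0.01 ± 0.112 and Col1a2 at 0.05 ± 0.087. Alpl, the alkaline phosphatase, differed by −0.36 ± 0.525 with overlapping arrays.

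Sterol and fatty acid synthesis genes read mostly lower, again with none called. Of 22 tested cholesterol genes, 20 were lower and 2 higher (median −0.71). With no overlap 13 were lower, against 6.40% of all named genes. Msmo1, a sterol oxidase, read 10.75, 10.87 and 10.70 against 9.45, 9.93 and 10.36 (−0.86 ± 0.202, adjusted p = 0.207 in limma). Idi1, the isomerase of the isoprenoid pathway, differed by −1.21 ± 0.320, the sterol sensor Insig1 by −1.18 ± 0.313 and the demethylase Cyp51 by −0.95 ± 0.256, with adjusted p-values of 0.268, 0.279 and 0.293 in limma. Replicate 1 was the lowest of the 2-month arrays in 18 of the 22 genes and replicate 3 the highest in 20, and without HFD 2-month replicate 1 the list median was −0.51.

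Of 24 tested genes of fatty acid and triglyceride synthesis, 21 were lower and 3 higher (median −0.41). Fasn, the fatty acid synthase, read 9.58, 9.24 and 9.08 against 8.48, 8.62 and 8.88 (−0.65 ± 0.142, adjusted p = 0.162 in limma). Scd, the desaturase that makes oleic acid, read 8.73, 7.32 and 7.21 against 5.05, 5.62 and 6.75 (−1.95 ± 0.471, adjusted p = 0.207 in limma). Acly, which supplies acetyl-CoA, differed by −0.76 ± 0.246, and Agpat2, an acyltransferase of triglyceride assembly, by −0.61 ± 0.228. The list median was −0.23 without HFD 1-month replicate 1 and also −0.23 without HFD 2-month replicate 1.

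Fat cell genes rested in part on 1 array. Of 25 tested genes, 20 were lower and 5 higher (median −0.73), with none called. With no overlap 6 were lower and 2 higher, against 6.40% and 7.23% of all named genes. Cfd, the adipocyte protease adipsin, read 11.30, 6.91 and 8.25 after 1 month and 4.44, 5.17 and 5.13 after 2 months (−3.90 ± 1.055, adjusted p = 0.280 in limma). Rbp4, the retinol carrier, read 8.09, 3.37 and 6.57 against 2.64, 2.22 and 3.20, and Adipoq, chosen after its values were seen, 7.72, 3.20 and 4.28 against 2.80, 3.09 and 2.69. HFD 1-month replicate 1 was the highest of its group in all 3 genes, and far above it in Cfd and Adipoq. In Rbp4 replicate 2, at 3.37, stood farthest apart. Without HFD 1-month replicate 1 the list median was −0.39. Cebpd, an early factor of fat cell differentiation, differed by −0.92 ± 0.269, and Zfp423, a factor of preadipocytes, by −0.78 ± 0.233, neither past the threshold.

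Small leucine-rich proteoglycans, which bind collagen fibrils and growth factors, and the listed large proteoglycan Vcan were lower in 8 of 10 tested genes (median −0.81, none called). Decorin, Dcn, read 10.93, 10.60 and 11.26 against 8.13, 7.05 and 9.66 (−2.65 ± 0.705, adjusted p = 0.276 in limma). Vcan read 10.69, 11.07 and 10.34 against 9.32, 9.45 and 10.06 (−1.09 ± 0.262, adjusted p = 0.207 in limma). Lum, lumican, differed by −0.56 ± 0.211 with no overlap, whereas osteoglycin, Ogn, spanned 6.66 to 11.21 within the 1-month group and its difference of −2.03 ± 1.303 did not pass. The list median was −0.40 without HFD 1-month replicate 3 and −0.54 without HFD 1-month replicate 1.

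Proliferation genes were lower nearly throughout, and none passed. Of 50 tested cell cycle and replication genes, 49 were lower and 1 higher (median −0.69). With no overlap between the groups 30 were lower, against 6.40% of all named genes. The proliferation antigen Mki67 read 7.43, 7.65 and 7.17 after 1 month and 5.06, 6.36 and 7.10 after 2 months (−1.25 ± 0.438, adjusted p = 0.451 in limma). The spindle motor Kif11 differed by −1.27 ± 0.493, the topoisomerase Top2a by −1.04 ± 0.419 and the ribonucleotide reductase subunit Rrm1 by −0.83 ± 0.336. HFD 2-month replicate 1 was the lowest of its group in 45 of the 50 genes, and the list median was −0.43 without it. The mean of the 47 genes measured on all 18 arrays was 6.75, 6.89 and 6.45 after 1 month and 5.55, 6.23 and 6.32 after 2 months.

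**Figure D3:**
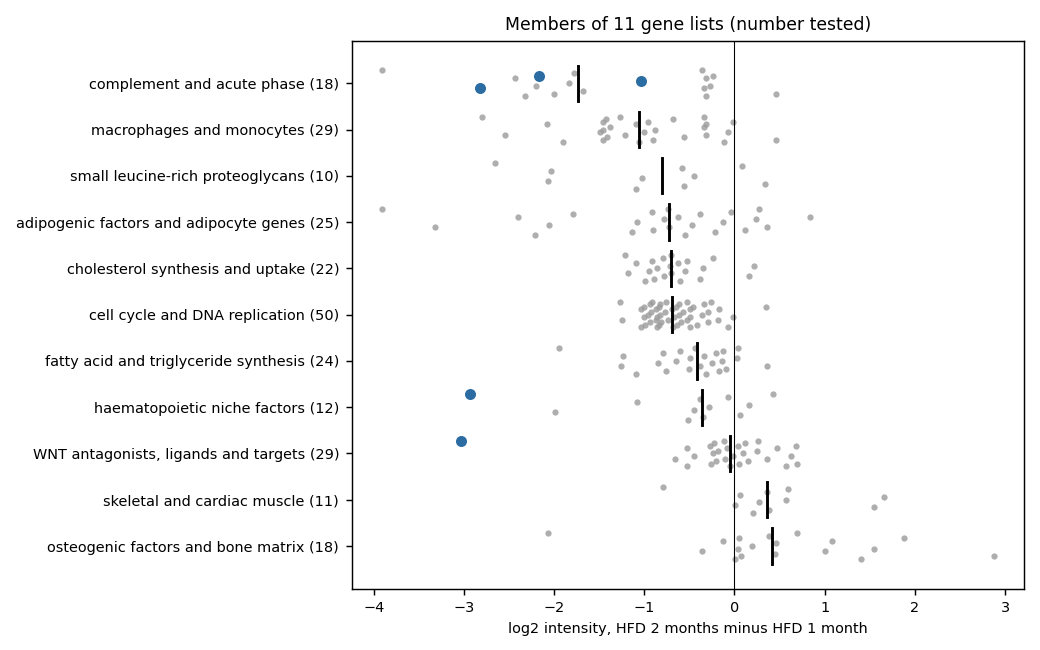
Each point is 1 tested gene of a list, at its log2 difference of HFD 2 months minus HFD 1 month; blue points passed the threshold and bars mark list medians. Complement and acute phase genes have the lowest median, −1.73, and osteogenic genes the highest of these 11 lists, 0.42.

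Markers of macrophages, which adhere in marrow cultures, were lower as well. Of 29 tested markers, 28 were lower and 1 higher after 2 months (median −1.06), with none called. With no overlap 1 was lower, against 6.40% of all named genes. Single arrays weighed on that median: it was −0.37 when replicate 1 of the 2-month group was left out, −1.67 when its replicate 3 was, and −0.66 when replicate 2 of the 1-month group was. Ptprc read 5.99, 6.78 and 6.08 against 3.16, 4.87 and 6.33, Aif1 7.05, 8.61 and 6.96 against 4.04, 5.80 and 7.08, and Adgre1 7.55, 9.14 and 7.97 against 4.26, 5.56 and 6.43. These intensities do not reach 0, and Ptprc at 3.16 lay under the level below which dim probe sets were left out. The mean of 24 markers was 6.51, 7.96 and 6.51 after 1 month and 4.87, 6.06 and 6.99 after 2 months, against 3.98 to 8.81 on the 9 ND arrays.

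The level of these markers was entered as a covariate. With it 66 probe sets passed, 25 of them higher, and all 11 named genes passed with adjusted p-values of 0.0198 to 0.0273 in limma. The falls were then 3.03 log2 units for Sfrp1, 3.09 for Cxcl12, 2.80 for Hp, 1.94 for C1s and 0.99 for C1r. The median of the complement and acute phase list was −0.88 with the covariate, against −1.73 without it, that of cholesterol genes −0.61 and that of niche factors −0.60, against −0.36.

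Markers of the other cell types that marrow can hold overlapped between the groups in their mean level. The mean levels of each list over the 6 arrays ran from 3.76 to 4.56 for granulocytes and mast cells, from 3.83 to 4.27 for B and T lymphocytes, from 4.38 to 4.92 for endothelium, and from 3.93 to 4.22 for erythroid cells. They were higher for megakaryocytes and platelets (4.68 to 5.94), Schwann and neural cells (5.19 to 6.07) and osteoclasts (6.55 to 7.51). Muscle markers differed the other way, with 10 of 11 tested genes higher (median 0.36) and none called. That median was 0.10 with no intensity filter, 0.12 when replicate 3 of the 1-month group was left out and 0.18 when replicate 3 of the 2-month group was. Casq2, a calcium store protein of heart muscle, read 6.36, 5.21 and 5.40 against 8.30, 7.05 and 6.60 (1.66 ± 0.399, adjusted p = 0.207 in limma), and the skeletal actin Acta1 7.84, 8.23 and 7.42 against 9.85, 9.95 and 8.33 (1.55 ± 0.573, adjusted p = 0.493 in limma). Both lay above all other arrays after 2 months, whereas the muscle regulator Myog stayed between 3.32 and 3.81. The part of these cells in the other results was not tested.

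**Figure D4:**
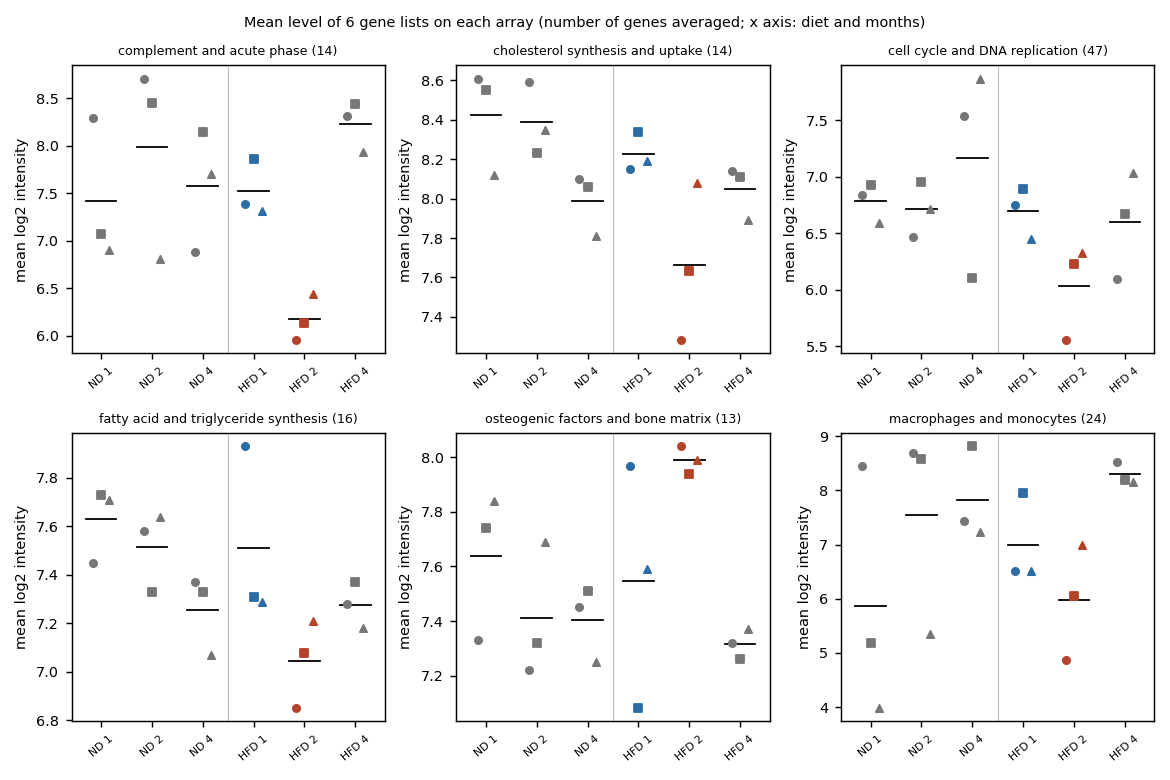
Mean log2 intensity of 6 gene lists on each array, by diet and months; the number in each title is the number of genes averaged, symbols mark replicates 1 (circle), 2 (square) and 3 (triangle), HFD 1 month is blue and HFD 2 months red. The complement list lies at 5.95 to 6.44 after 2 months of HFD, below the other 5 groups, while the macrophage list spans 4.87 to 6.99 there and 3.98 to 8.81 on the ND arrays.

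The ND cultures show how the same interval looked without the added lard, sucrose and egg yolk powder. No array is shared between the diets. From 1 to 2 months of ND, none of 21729 probe sets passed in limma, with 562 at an unadjusted p under 0.05. Sfrp1 differed by 0.31 ± 0.469 over that month of ND, Cxcl12 by 0.20 ± 0.469, Hp by 0.48 ± 0.457, C1s by 0.58 ± 0.370 and C1r by 0.19 ± 0.164. The other 2 genes that fell under HFD also read lower over that month of ND, Lgals9 by −0.44 ± 0.298 and Lrrc75a by −0.28 ± 0.179, neither past the threshold. The macrophage list had a median of 2.01 under ND, against −1.06 under HFD, and the difference of the list between the diets was not tested. Its mean on the ND arrays overlapped, at 8.45, 5.18 and 3.98 after 1 month and 8.69, 8.58 and 5.35 after 2 months.

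The difference between the diets was tested directly. No probe set passed (lowest adjusted p = 0.289 in limma), with 1455 at an unadjusted p under 0.05, so no change was shown to be particular to HFD. The HFD change minus the ND change was −3.34 ± 0.663 for Sfrp1, −3.30 ± 0.647 for Hp, −2.74 ± 0.523 for C1s and −1.22 ± 0.232 for C1r. In the upward direction it was 1.66 ± 0.331 for Arhgap5, 1.37 ± 0.274 for Ppip5k1, 1.22 ± 0.224 for Rbm11 and 1.03 ± 0.189 for Fpgt, a fucose salvage enzyme. All 8 had an adjusted p of 0.289 in limma. Without HFD 2-month replicate 3 the difference passed for 27 probe sets, 19 of them higher.

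**Figure D5:**
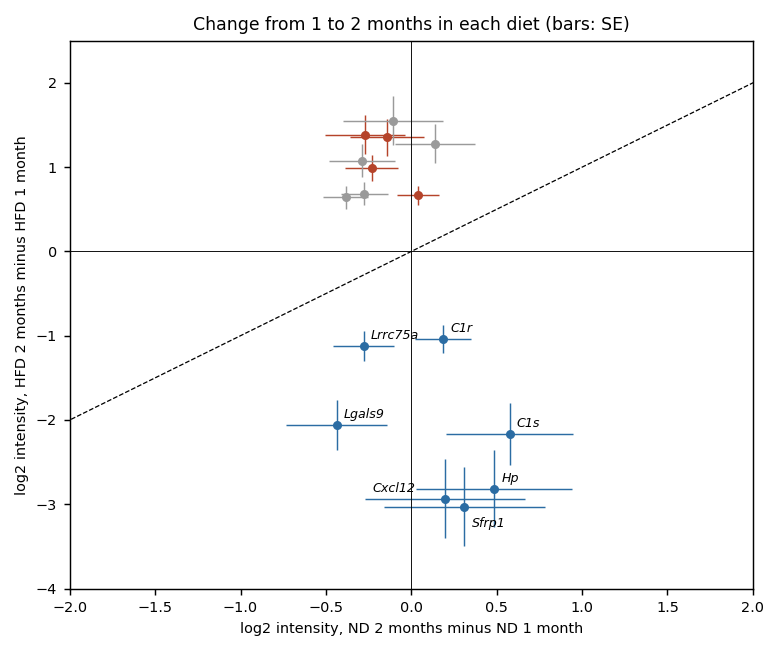
Log2 difference of 2 minus 1 month under ND (x axis) and under HFD (y axis) for the 16 named genes, with standard errors; the dashed line marks equal change. The 7 genes that fell under HFD (blue) lie between −1.04 and −3.03 on the y axis and between −0.44 and 0.58 on the x axis; red points rose, and grey points did not pass.

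The later HFD group places the 2-month levels in time. Its comparison with the 2-month group uses the same 2-month arrays, so the values are given side by side only. After 4 months of HFD Cxcl12 read 11.41, 12.05 and 10.87, Sfrp1 10.08, 10.17 and 8.63, and Hp 7.28, 7.98 and 7.84. C1s read 10.06, 9.90 and 9.25, and Lgals9 5.37, 5.57 and 5.57. In all 7 genes that fell, every 4-month array lay above every 2-month array. The 4 genes that rose at 2 months read lower at 4 months, with Tmem30b at 7.56 to 7.83, Arhgap5 at 7.65 to 7.93, Foxq1 at 4.10 to 4.32 and Rbm11 at 2.72 to 2.99. The macrophage level was then 8.53, 8.19 and 8.16, higher than on all 6 earlier HFD arrays.

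Several genes of other lists, chosen after their values were seen, came close to the threshold. Sema6a, a guidance cue, differed by −1.30 ± 0.227 (adjusted p = 0.0560 in limma), the laminin chain Lama4 by −0.86 ± 0.161 (adjusted p = 0.0656 in limma) and the fibril-associated collagen Col14a1 by −2.91 ± 0.575 (adjusted p = 0.0854 in limma). Col14a1 read 10.88, 10.72 and 11.50 after 1 month and 6.91, 7.50 and 9.96 after 2 months, with replicate 3 again nearest to the earlier group. Of the 36 lists not described above, none had a called member. Among them, 23 of 25 interferon response genes were lower (median −0.29) and 12 of 16 HOX genes were higher (median 0.18). Of 13 class I peptide loading genes 6 were lower with no overlap, against 6.40% of all named genes.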

How the data were processed

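Total RNA of cultured rat marrow stromal cells was measured on 18 Affymetrix arrays, 3 per diet and feeding time. The authors deposited 1 linear probe set intensity per array, and the submitters' processing notes name RMA, without a version. Log2 of each deposited intensity was taken with no constant. Values of ND 1-month replicate 1 were displaced by 1343 rows against the probe set names and were moved back (correlation with the median of the other arrays 0.0900 before and 0.990 after). There, 1066 tested probe sets have no value and were fitted on the other arrays.

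Of 31099 probe sets, 57 controls and the dimmest 30% by mean log2 (at or below 3.22) were left out, which left 21729. Each of 11446 named genes is represented by its brightest tested probe set with 1 symbol in the platform annotation, updated through RefSeq (GRCr8). limma 3.58.1 in R 4.3.3 was fitted to all 18 arrays with 1 mean per group and default moderation, two-sided. Contrasts were 2 minus 1 month within each diet, their difference, and 4 minus 2 months of HFD. The steps were tested on simulated data.

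Genes were named by rule: up to 12 rises and 12 falls that passed without overlap (a direction with under 5 was filled to 8 by moderated t), 4 each way for the difference between diets, and up to 4 members by moderated t of each list with a called member or with a median beyond the 10th or 90th percentile of all genes. Further list members were named outside this rule, among them Sfrp2, Wif1, Dkk3, C3, C1qa, C1qb, C1qc, Col1a1, Col1a2 and Alpl. The comparison, the 38 gene lists and the 9 marker lists were chosen with earlier results of these data known. The labels give no pairing; the 3 same-numbered HFD pairs had residual correlations from −0.044 to 0.321, and the numbers were not treated as pairs. Alternatives changed the filter, normalization, variance model, arrays and covariates. Promoter sequences are those of RefSeq, build GRCr8.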

Additional observations from a re-analysis of the deposited data

How the results depend on the processing

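The 17 calls between 2 and 1 months of HFD were 15 with no intensity filter, with quantile normalization, with median centring and with a robust variance model, 14 with the dimmest 50% left out and with probe sets open to cross-hybridisation left out, and 16 with a variance trend. They were 558 with array weights, 66 with macrophage markers as a covariate, 4 in a fit of the 9 HFD arrays, and 0 when the model used just these 6 arrays, with the displaced column as deposited and with a minimum change of 1.5-fold. Leaving out each array in turn gave 0 to 182. Leaving out both HFD 1-month replicate 2 and HFD 2-month replicate 3, chosen after seeing the data, gave 67. With the replicate number as a block the count was 0 (lowest adjusted p 0.0924 in limma), and 4 of the 6 arrays had their closest match in the other group at the same number, a hint from the data and not the design. The difference between the diets, 0 in limma, was 1 with the macrophage covariate, 0 to 27 with each array left out and 19 with both left out. No named gene changed direction: of the values under alternatives, 304 kept their side of the threshold, 205 lost it and 17 gained it. These values pool all 16 named genes, and a gene not called in the main fit counts as kept while it does not pass. All 205 losses are of the 11 called genes. Apart from the omissions of 1 array, these passed in 3 of 14 settings (Foxq1) to 11 of 15 (Sfrp1 and others). The causes were not tested. Of 363 medians of the described lists, 2 changed sign, both of the WNT list. Array weights moved the median of the complement list from −1.73 to −0.81 and that of niche factors from −0.36 to −0.59. With 3 arrays per group, differences of genes as variable as C3 (SE 1.481) were not detectable at this precision.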
